A study of Mus musculus with 7 samples.

Results

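The TRIM family encodes proteins most of which are RING-type ubiquitin ligases, and its members are the 68 protein-coding genes of mouse RefSeq (mm10, assembly GRCm38.p6) whose symbol is Trim followed by a number and an optional letter, out of 21631 protein-coding genes on chromosomes 1 to 19 and X. Chromatin accessibility at these genes was measured by Omni-ATAC-seq in Lgr5+ intestinal stem cells, sorted by flow cytometry from B6-GFP-Lgr5 female mice of 8 to 12 weeks, 7 days after lethal irradiation and bone marrow transplantation. Allogeneic recipients (Allo, 4 libraries) received BALB/c marrow, a mismatch that can cause graft-versus-host disease, and syngeneic recipients (Syn, 3 libraries) had B6-GFP-Lgr5 donors. All groups share the reporter, the irradiation and the transplant, so no library shows unirradiated stem cells, and each library is 50000 cells from an independent pool of 3 to 4 mice. The Lgr5 reporter selects the cells at the crypt base, but a pool mixes cells of several animals.

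Most TRIM proteins carry a RING finger, 1 or more B-box domains and a coiled coil, followed by a C-terminal part that sets its partners, often a SPRY domain. Many members attach ubiquitin to sensors and adaptors of innate immunity, and some block retroviruses directly. Interferon induces a subset of the family, and in vertebrates such genes often carry an interferon-stimulated response element (ISRE), the DNA element bound by the factor ISGF3. Other members act as transcriptional corepressors, in muscle, in neurons or in the germ line.

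The data are 1 list of peaks per library. The Allo lists held 62977, 76091, 88861 and 81719 peaks and the Syn lists 71925, 73668 and 76438. The number of reads behind them is unknown, so a difference in depth cannot be told apart from a difference in accessibility, and neither can fewer cells with an open site and a less open site in each cell. Peaks in the Allo 3 and Allo 4 lists carry names of a different pattern from those in the 5 remaining lists. The median peak measured 464, 449, 477 and 471 bp in Allo and 506, 510 and 499 bp in Syn, without overlap. Of 6 stem cell markers, 5 had a peak within 1 kb of a gene end in every library (all but Axin2), as had all 4 epithelial markers. Cd3e, Cd3d, Cd3g, Cd8a, Ptprc, Cd79a, Ms4a1, Csf1r, Adgre1, Pecam1, Cdh5 and Pdgfra had such a peak in no library.

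A peak was assigned to a member if its summit lay in the gene body, or if the member was the nearest protein-coding gene within 50 kb and no body held the summit. Peaks of all libraries that overlapped were merged into 103809 regions, of which 297 belonged to Trim genes, 1 of them to both Trim60 and Trim61, whose bodies overlap. A peak's rank percentile is the standing of its −log10 q within its own list, where 100 is the strongest peak. A difference in percentile is therefore a difference in standing and not in absolute accessibility. Exons were not used here, so regions are placed only by gene body and transcription start.

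Peaks assigned to Trim genes numbered 207, 240, 278 and 250 in Allo 1 to 4 and 215, 227 and 225 in Syn 1 to 3. Per 10000 peaks this was 31.57 ± 0.953 in Allo libraries and 30.05 ± 0.702 in Syn libraries (SD, n = 4 and 3), and the lowest Allo value (30.6) lay below the highest Syn value (30.8). Between 58 and 61 of the 68 members had a peak in an Allo library and 57 or 58 in a Syn library. The median percentile of Trim peaks was 50.15 ± 2.25 in Allo libraries and 50.13 ± 1.65 in Syn libraries (SD, n = 4 and 3), so Trim peaks ranked close to the middle of each list. Their median width was 449, 482.5, 480.5 and 488 bp in Allo and 549, 583 and 559 bp in Syn, a gap of the same direction as that of all peaks but larger. The means of these medians differed, Allo minus Syn, by -88.7 bp for Trim peaks and -39.8 bp for all peaks. The part of this gap in the results below was not tested.

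Regions were spread unevenly over the family. Trim2, a ubiquitin ligase of neurons, had 35 regions, Trim27, a regulator of innate signalling, had 19, Trim33, a corepressor of TGF-beta signalling, had 15, and Trim24 and Trim36 had 10 each. By the assignment rule 7 members had no peak in any library: Trim28, Trim30b, Trim30c, Trim34b, Trim43b, Trim54 and Trim75. Trim28 is a special case, since its start peak lay in the overlapping predicted gene Gm31649 and was assigned there. Of the 297 regions, 155 (52.2%) were held by all 7 libraries, against 48.5% of all merged regions. Regions at transcription starts were held by all 7 libraries in 35 of 44 cases, with a median percentile of 78.0 and a median width of 1203 bp. Regions in gene bodies were shared in 61 of 110 cases and flanking regions in 50 of 130, with median percentiles of 34.7 and 34.0.

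Start peaks, those with a summit within 1 kb of a RefSeq transcription start, describe which members had accessible promoters in these cells. A start was listed for 53 of the 68 members. Of these, 34 (64.2%) had a start peak in all 7 libraries, 15 (28.3%, background 33.0%) had one in no library and 4 in some, whereas 60.1% of the 17274 protein-coding genes with a listed start had one in all 7. The median percentile of the 34 members was 88.7, against 89.9 for all such genes. The number of members with a start peak was 35, 36, 38 and 37 in Allo and 36, 37 and 36 in Syn. No member had a start peak in all Allo and no Syn libraries (background 0.0810% of genes) or in all Syn and no Allo libraries (background 0.0984%). The means, 36.5 ± 1.29 in Allo and 36.33 ± 0.577 in Syn (SD, n = 4 and 3), differed by less than this spread.

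**Figure D1:**
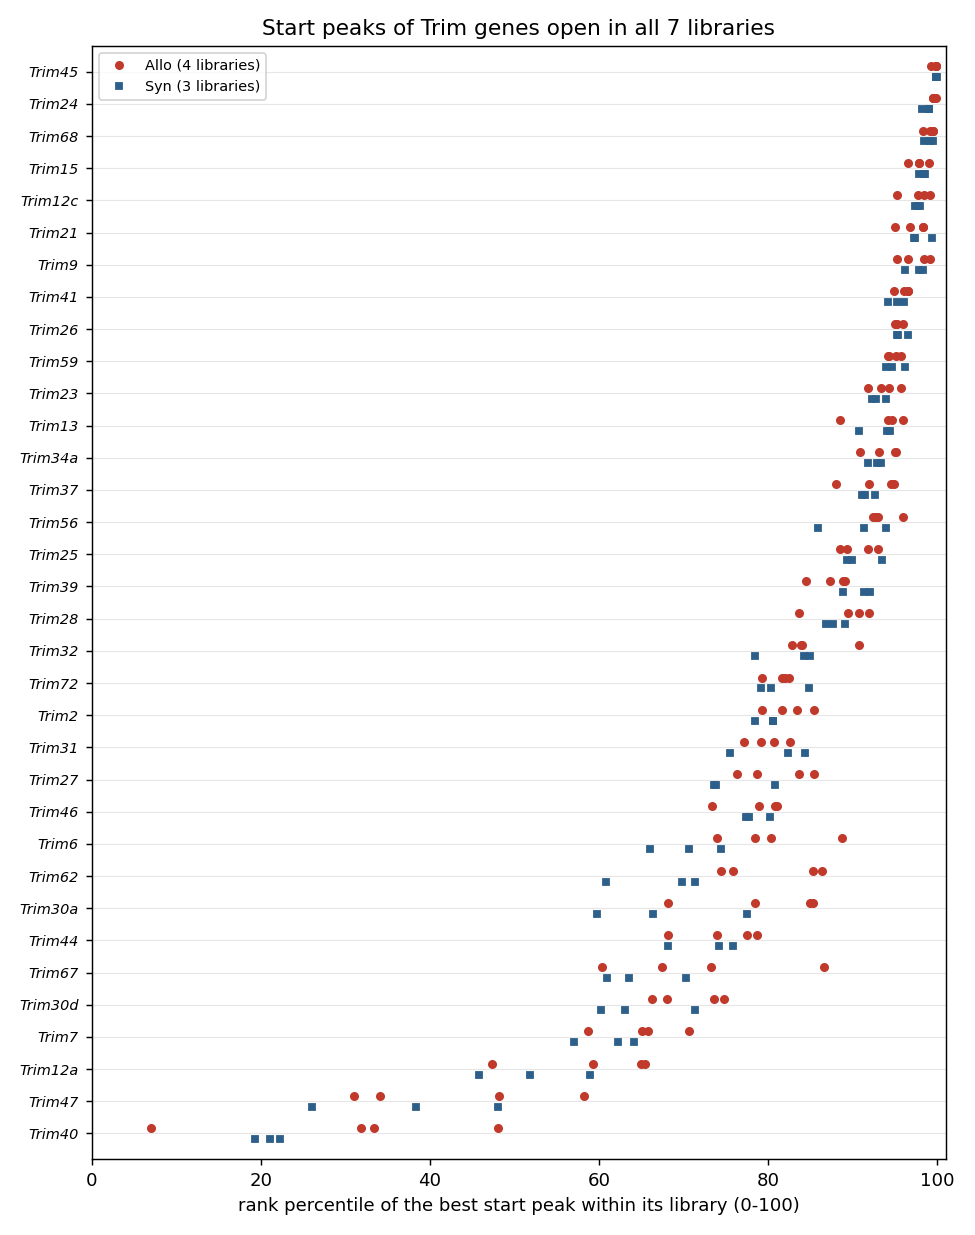
Rank percentile of the best start peak within its library (x axis, 0 to 100) for the 34 Trim genes with a start peak in all 7 libraries, 1 row per gene; circles are the 4 Allo libraries and squares, just under them, the 3 Syn libraries. Trim45, Trim24 and Trim68 lie above 98 in all libraries, and Trim40 and Trim47 lie lowest.

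Among the highest starts was that of Trim24, which encodes the corepressor TIF1-alpha, at percentiles of 99.8, 99.5, 99.5 and 99.6 in Allo and 99.0, 99.0 and 98.2 in Syn. Each Allo value lay above each Syn value, by a difference of 0.906 ± 0.564 percentile points (SE; limma adjusted p = 0.473), which did not pass the threshold. Trim45, reported to repress MAPK signalling in human cells, averaged 99.7 ± 0.272 in Allo libraries and 99.9 ± 0.0167 in Syn libraries (SD, n = 4 and 3). Trim68, whose product binds the androgen receptor in human cells, averaged 99.1 ± 0.567 in Allo libraries and 99.0 ± 0.576 in Syn libraries (SD, n = 4 and 3). Trim15, a gene of the MHC region, averaged 97.8 ± 0.968 in Allo libraries and 98.3 ± 0.371 in Syn libraries (SD, n = 4 and 3). The values overlapped at Trim68 and Trim15, and at Trim45 every Allo value lay below every Syn value by a small step (limma adjusted p = 0.897). Trim12c completed the highest 5 and is described with its cluster.

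The corepressor group holds Trim24, Trim28, Trim33 and Trim66. Trim28 (KAP1), which silences endogenous retroviruses together with KRAB zinc finger proteins, had start percentiles of 89.4, 83.7, 90.8 and 91.9 in Allo and 86.8, 87.7 and 89.1 in Syn, which overlap. At the gene end of Trim33 (chr3:103278696-103280772), a gene with no start listed, the percentiles were 91.6, 88.7, 90.2 and 87.3 in Allo and 85.1, 86.2 and 86.4 in Syn. They did not overlap, with a difference of 3.54 ± 1.60 points (SE; limma adjusted p = 0.309). Trim66, a germ line corepressor, had no start peak in any library. Of 9 shared regions of the group, 3 had every Allo percentile above every Syn percentile (background 8.06%), 0 had every Allo percentile below (background 6.58%), and 0 passed limma (background 0.461%).

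The lowest starts open in all 7 libraries belonged to Trim40, Trim47, Trim12a, Trim7 and Trim30d. Trim40, a gut-expressed member known to restrain NF-kB, stood at 31.8, 33.4, 48.1 and 7.04 in Allo and 21.1, 22.3 and 19.3 in Syn. Trim47 averaged 42.9 ± 12.7 in Allo libraries and 37.5 ± 11.0 in Syn libraries (SD, n = 4 and 3), and Trim7 averaged 65.1 ± 4.89 in Allo libraries and 61.2 ± 3.71 in Syn libraries (SD, n = 4 and 3). The values overlapped in each of these genes. Of the 4 members with a start peak in part of the libraries, Trim5 had it in Allo 3 alone, and Trim58, Trim69 and Trim71 had it in both recipient types.

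The 15 members with no start peak were Trim10, Trim30b, Trim30c, Trim34b, Trim38, Trim42, Trim43a, Trim52, Trim54, Trim60, Trim61, Trim63, Trim66, Trim75 and Trim80. Trim54 and Trim63 encode MuRF ligases of striated muscle. Trim42, Trim43a, Trim60, Trim61 and Trim75 are in a list named for rodent-specific or germ line genes, which also holds the erythroid gene Trim58. Of the 8 genes of that list with a listed start, 0 had a start peak in all 7 libraries (background 60.1%). None in any library was found at 6 (background 33.0%). By contrast, Trim72, a membrane repair gene of striated muscle, had a start peak in all 7 libraries, at 81.3 ± 1.40 in Allo libraries and 81.5 ± 2.94 in Syn libraries (SD, n = 4 and 3). All 9 broadly expressed members with a listed start had a peak there in all 7 libraries (background 60.1%). Trim37, a centrosome regulator, and Trim59 are among them.

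The cluster on chromosome 7 holds the mouse relatives of the human capsid-binding restriction factor TRIM5, and genes with similar windows there differed in their called peaks. Start windows of this cluster are shown, and those of Trim5, Trim12c and Trim30d were chosen after their values were seen. They run from 250 bases before to 50 bases after the RefSeq start (GRCm38.p6, minus strand, 5′ to 3′), and capitals mark the core letters of an ISRE (GAAA, any 2 bases, GAAA) on either strand. The first Trim30a window is chr7:104465144-104465443, the second chr7:104446076-104446375, Trim30d chr7:104507800-104508099, Trim12c chr7:104353300-104353599, Trim5 chr7:104288057-104288356 and Trim12a chr7:104315446-104315745.
Trim30a, first start: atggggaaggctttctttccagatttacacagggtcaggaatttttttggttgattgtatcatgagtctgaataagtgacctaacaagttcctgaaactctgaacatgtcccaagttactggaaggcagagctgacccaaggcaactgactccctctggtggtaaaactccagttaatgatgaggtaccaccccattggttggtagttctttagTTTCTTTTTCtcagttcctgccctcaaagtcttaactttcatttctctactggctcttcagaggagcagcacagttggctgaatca
Trim30a, second start: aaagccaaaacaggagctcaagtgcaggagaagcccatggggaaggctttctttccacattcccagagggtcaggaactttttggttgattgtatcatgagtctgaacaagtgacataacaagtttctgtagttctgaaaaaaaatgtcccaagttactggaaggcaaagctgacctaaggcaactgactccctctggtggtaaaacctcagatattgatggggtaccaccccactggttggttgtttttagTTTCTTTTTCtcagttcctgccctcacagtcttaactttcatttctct
Trim30d: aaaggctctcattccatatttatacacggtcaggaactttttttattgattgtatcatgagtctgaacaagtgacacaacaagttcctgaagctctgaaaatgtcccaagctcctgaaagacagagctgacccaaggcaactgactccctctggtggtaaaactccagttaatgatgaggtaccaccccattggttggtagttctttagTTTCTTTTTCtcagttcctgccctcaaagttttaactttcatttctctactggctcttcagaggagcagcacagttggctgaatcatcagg
Trim12c: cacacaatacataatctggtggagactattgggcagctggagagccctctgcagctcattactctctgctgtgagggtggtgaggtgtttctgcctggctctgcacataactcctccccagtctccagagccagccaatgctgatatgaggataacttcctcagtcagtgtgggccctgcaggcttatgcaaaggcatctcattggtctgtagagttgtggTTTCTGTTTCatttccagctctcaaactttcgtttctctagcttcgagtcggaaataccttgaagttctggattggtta
Trim5: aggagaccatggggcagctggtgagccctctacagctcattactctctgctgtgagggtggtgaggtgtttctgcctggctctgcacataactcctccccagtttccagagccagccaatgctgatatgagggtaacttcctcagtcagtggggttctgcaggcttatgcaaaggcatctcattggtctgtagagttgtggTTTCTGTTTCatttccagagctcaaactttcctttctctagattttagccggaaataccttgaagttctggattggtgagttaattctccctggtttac
Trim12a: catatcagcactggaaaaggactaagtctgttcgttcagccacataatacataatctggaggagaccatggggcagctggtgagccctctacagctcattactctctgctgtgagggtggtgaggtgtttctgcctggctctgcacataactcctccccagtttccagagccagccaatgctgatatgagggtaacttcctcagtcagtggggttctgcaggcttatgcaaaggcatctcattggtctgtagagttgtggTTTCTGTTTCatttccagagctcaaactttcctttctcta

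Each of these 6 windows held these letters, as the reverse complement, with the first base between 49 bases before and 10 bases after the start. In a global alignment the first Trim30a window and that of Trim30d were 90.8% identical, Trim5 and Trim12c 82.2%, Trim12a and Trim12c 72.6%, and both Trim30a windows 70.0%. The Trim5 and Trim12a windows came to 67.1% because they are shifted against each other. Where these 2 windows overlap, all 241 bases are the same. Reads from such paralogs can be hard to place, and the sources used here do not state how ambiguous reads were treated, so peaks in these genes are less certain than elsewhere. In the called peaks, Trim5 stood far from Trim12c, and from Trim12a, which had a start peak in all 7 libraries. Whether the placement of reads plays a part in this was not tested. Trim12c had start percentiles of 95.2, 99.1, 97.7 and 98.4 in Allo and 98.0, 97.7 and 97.4 in Syn, while Trim5 had a start peak in Allo 3 alone (34.2).

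The cluster list of 12 genes also holds Trim21 and Trim68. It had a start peak in all 7 libraries at 8 genes (background 60.1%) and in none at 3, Trim30b, Trim30c and Trim34b (background 33.0%). Trim34a stood at 90.9, 95.0, 95.1 and 93.1 in Allo and 92.9, 93.4 and 91.8 in Syn, and its neighbour Trim34b had no peak of any kind. Trim12a averaged 59.3 ± 8.45 in Allo libraries and 52.2 ± 6.54 in Syn libraries (SD, n = 4 and 3; limma adjusted p = 0.668), and Trim6 averaged 80.4 ± 6.16 in Allo and 70.4 ± 4.19 in Syn (SD, n = 4 and 3; limma adjusted p = 0.260). Over its 10 shared regions the median difference was 3.32 points, against 0.961 for all shared Trim regions and 0.437 for all shared regions. Of the 10, 1 had every Allo percentile above every Syn percentile (background 8.06%) and 0 had the reverse (background 6.58%).

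That region was the second start of Trim30a (chr7:104445971-104446678), whose product in mice dampens Toll-like receptor signalling by degrading TAB2 and TAB3. It stood at 57.7, 46.0, 54.3 and 45.2 in Allo and 31.3, 23.9 and 45.0 in Syn. The lowest Allo and the highest Syn value were 0.2 points apart, and the difference of 17.4 ± 7.66 points (SE) did not pass (limma adjusted p = 0.299). The first Trim30a start (chr7:104464810-104465789) stood at 68.2, 85.3, 85.0 and 78.4 in Allo and 59.8, 77.5 and 66.4 in Syn, which overlap, with a difference of 11.3 ± 5.22 points (SE; limma adjusted p = 0.322). Trim30d, whose start window resembles it most, averaged 70.7 ± 4.12 in Allo libraries and 64.9 ± 5.73 in Syn libraries (SD, n = 4 and 3; limma adjusted p = 0.621).

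Trim21 and Trim25 are the best studied members in innate sensing. Trim21 is the cytosolic antibody receptor, and its window on chr7:102565433-102565732 (minus strand) is shown for its 2 overlapping ISRE matches, again in capitals. Trim25, which ubiquitinates the RNA sensor RIG-I, is shown as a CpG-rich window without a match (chr11:88999153-88999452, plus strand), and so is Trim27 (chr13:21179681-21179980, plus strand).
Trim21: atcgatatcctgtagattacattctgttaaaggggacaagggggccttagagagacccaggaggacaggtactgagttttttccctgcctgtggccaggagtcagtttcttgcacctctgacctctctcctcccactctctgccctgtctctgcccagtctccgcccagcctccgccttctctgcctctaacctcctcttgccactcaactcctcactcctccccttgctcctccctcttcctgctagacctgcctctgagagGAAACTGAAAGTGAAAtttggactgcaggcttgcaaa
Trim25: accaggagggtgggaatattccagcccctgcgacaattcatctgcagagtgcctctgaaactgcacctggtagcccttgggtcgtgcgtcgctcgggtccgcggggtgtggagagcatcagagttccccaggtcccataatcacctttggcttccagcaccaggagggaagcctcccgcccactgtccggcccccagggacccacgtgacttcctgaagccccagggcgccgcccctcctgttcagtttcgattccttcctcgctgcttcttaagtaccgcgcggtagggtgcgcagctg
Trim27: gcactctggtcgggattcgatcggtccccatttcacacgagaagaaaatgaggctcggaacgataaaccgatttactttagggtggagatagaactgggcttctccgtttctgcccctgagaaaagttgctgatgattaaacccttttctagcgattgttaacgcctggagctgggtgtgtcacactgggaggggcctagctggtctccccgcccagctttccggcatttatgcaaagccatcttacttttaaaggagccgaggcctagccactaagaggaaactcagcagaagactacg

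At both starts of the sensing genes the values of the recipient types overlapped. Trim21 stood at 98.3, 95.0, 98.3 and 96.8 in Allo and 97.2, 99.4 and 97.4 in Syn (difference -0.909 points, limma adjusted p = 0.695). Trim25 stood at 89.3, 88.5, 93.0 and 91.8 in Allo and 89.3, 89.9 and 93.5 in Syn (difference -0.216 points, limma adjusted p = 0.969). A region 4106 bp beyond the Trim25 body (chr11:89024076-89024956) stood at 88.4, 89.8, 87.5 and 89.5 in Allo and 86.8, 85.5 and 85.7 in Syn, and one in its body (chr11:89007595-89007935) at 31.1, 39.1, 42.4 and 43.3 in Allo and 30.0, 8.58 and 29.6 in Syn. The values of both regions did not overlap, but neither passed (limma adjusted p = 0.403 and 0.373).

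Among members of the MHC region on chromosome 17, 5 of 6 starts were open in all 7 libraries (background 60.1%), and Trim10 was the exception. Trim26, which turns down interferon-beta induction, averaged 95.4 ± 0.449 in Allo libraries and 95.7 ± 0.656 in Syn libraries (SD, n = 4 and 3; limma adjusted p = 0.866). Trim31, which acts on the inflammasome sensor NLRP3 and on MAVS, averaged 79.9 ± 2.30 in Allo libraries and 80.7 ± 4.62 in Syn libraries (SD, n = 4 and 3; limma adjusted p = 0.931). Trim10 had a region in its body (chr17:36872608-36872932) in Allo 1, 3 and 4 (percentiles 31.3, 19.4 and 29.8) and in neither Allo 2 nor any Syn library. Of 11 shared regions of these genes, 0 had every Allo percentile above every Syn percentile (background 8.06%) and 0 had the reverse (background 6.58%). Of the same 11, 0 passed limma (background 0.461%).

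Presence of peaks separated the recipient types at few Trim regions. In all 4 Allo and no Syn libraries, 3 of 297 regions were held (1.01%, background 1.14% of all merged regions), whereas 0 regions were held by each Syn and by no Allo library (background 1.01%). Counts this close to the background are no result about the family. Regions held by at least 1 Allo library and no Syn library numbered 60 (20.2%, against 21.0% of all regions), and regions held by at least 1 Syn library and no Allo library numbered 10 (3.37%, against 6.63%).

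The first Allo region lay in the body of Trim12a, 15373 bp from its start and close to its other end (chr7:104299989-104300324). Its percentiles were 26.1, 54.1, 37.0 and 34.3. The second lay 2667 bp from the body of Trim65, which activates the RNA sensor MDA5 (chr11:116121856-116122228), with 7.22, 11.9, 46.9 and 16.1. The third lay 4574 bp from the start of Trim43a, a germ line gene (chr9:88576000-88576787), with 22.1, 11.9, 57.7 and 12.0. The Trim65 and Trim43a regions stood at 22.1 or lower in 3 of 4 Allo libraries, and the Trim12a region at 26.1 or higher in all 4. Of the 3, the Trim65 region no longer separated the types with peaks of −log10 q of at least 5, the Trim65 and Trim43a regions did not with lists of matched length, and the Trim43a region did not when 50% of a region had to be covered.

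Differences in standing were tested at the 155 regions held by all 7 libraries, in a limma fit to all 50324 shared regions. At an adjusted p of 0.05, 1 Trim region passed as higher in Allo (background 0.360%) and 0 as lower (background 0.101%; 0.461% in both directions together). At an unadjusted limma p under 0.05, 19 were higher and 9 lower in Allo, 12.3% and 5.81%, against 8.53% and 6.88% of all shared regions. Every Allo percentile lay above every Syn percentile in 17 (11.0%, background 8.06%) and below in 10 (6.45%, background 6.58%). These shares lie near those of all regions and are no result about the family.

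**Figure D2:**
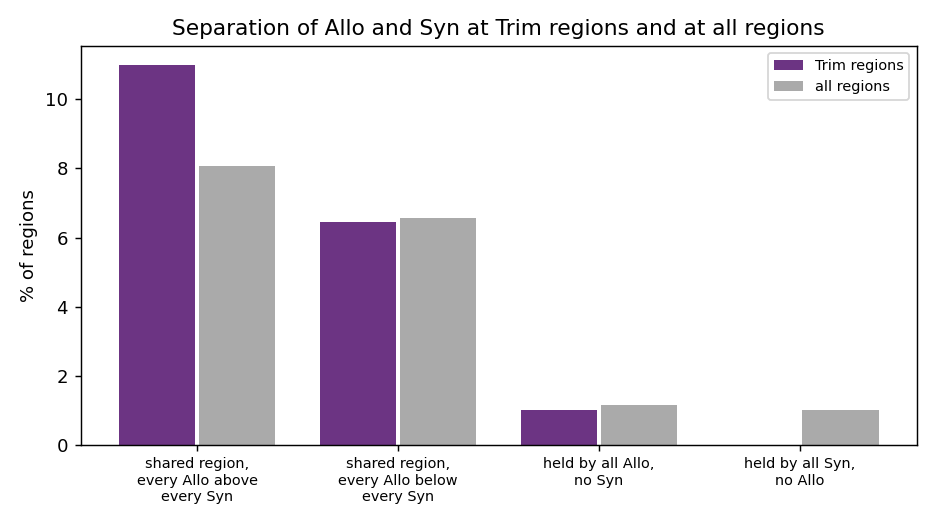
Percent of regions (y axis) that separate the 4 Allo from the 3 Syn libraries, for Trim regions (left bar of each pair) and all regions (right bar). The first 2 pairs count regions held by all 7 libraries by rank percentile (17 and 10 of 155 Trim regions), the last 2 count regions held by 1 recipient type alone (3 and 0 of 297 Trim regions), and no bar of a Trim pair exceeds its neighbour by more than 3 points.

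The region that passed lies 5384 bp before the start of Trim58 (chr11:58634855-58635508), an erythroid ubiquitin ligase gene. It stood at 52.3, 60.1, 41.0 and 48.9 in Allo and 10.6, 6.78 and 12.2 in Syn, so that the groups lay far apart. The difference was 40.7 ± 7.72 points (SE; limma adjusted p = 0.0402). The call rested on each of 5 libraries, since it was lost without Allo 3 (limma adjusted p = 0.0605), Allo 4 (0.106), Syn 1 (0.185), Syn 2 (0.169) or Syn 3 (0.149), and it was lost when peaks were ranked by fold (limma adjusted p = 0.215) or Allo 3 and 4 were both left out (limma adjusted p = 0.0797). No Trim region passed as higher with peaks of −log10 q of at least 5, with lists of matched length or with 50% of a region covered. In these settings the Trim58 region was not shared and so was not tested. The start of Trim58 itself stood low, between 3.72 and 19.4 in the 6 libraries with a peak there, with none in Syn 1.

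**Figure D3:**
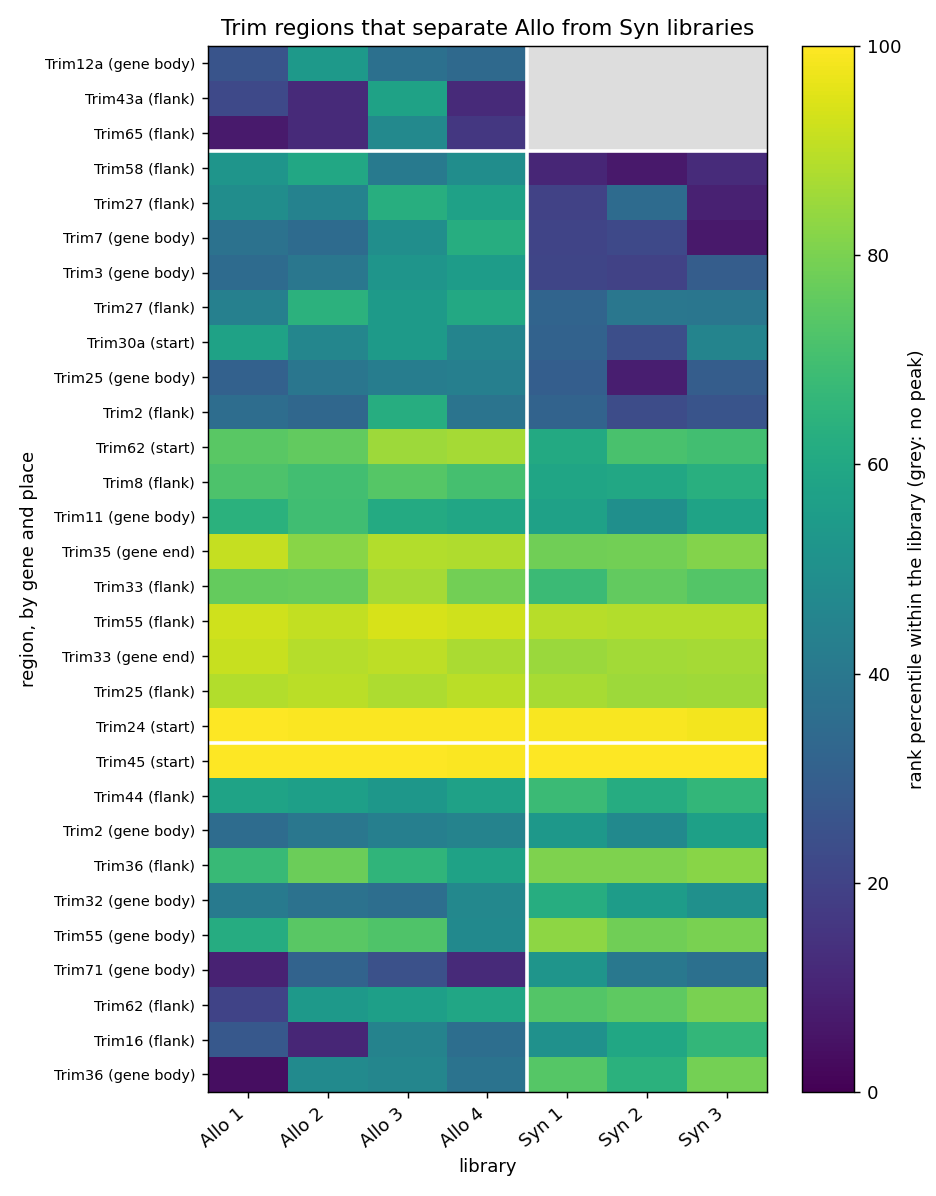
Rank percentile (colour, 0 to 100; grey where a library held no peak) at the 30 Trim regions that separate the recipient types, with Allo libraries in the left 4 columns and Syn libraries in the right 3. From the top, the blocks are the 3 regions held by Allo libraries alone, the 17 shared regions ranked higher in every Allo library (Trim58 first) and the 10 ranked lower, with the Trim36 gene body region last.

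Of the other regions with higher standing in every Allo library, those at gene starts or ends were few, and a flanking region of Trim8 is given with them. The start of Trim62, known from human cells as a regulator of epithelial polarity (chr4:128883008-128884777), stood at 74.4, 75.8, 85.3 and 86.4 in Allo and 60.8, 71.3 and 69.8 in Syn (difference 13.2 ± 4.40 points, SE; limma adjusted p = 0.183). The end region of Trim35, an interactor of pyruvate kinase in human cells (chr14:66296533-66297739), stood at 91.3, 82.2, 88.3 and 87.9 in Allo and 78.5, 78.9 and 81.6 in Syn (difference 7.75 ± 2.41 points, SE; limma adjusted p = 0.158). A region 1764 bp from Trim8, a ligase that acts in TNF signalling (chr19:46499708-46500536), stood at 72.2, 69.7, 73.6 and 70.7 in Allo and 58.7, 59.8 and 63.0 in Syn (limma adjusted p = 0.279). These 3 moved in 1 direction in all libraries, yet none passed the correction.

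Larger differences were found away from starts. A region 6610 bp before the Trim27 body (chr13:21172281-21173005) averaged 53.3 ± 8.12 in Allo and 21.4 ± 13.0 in Syn without overlap (SD, n = 4 and 3; difference 31.9 ± 8.35 points, SE; limma adjusted p = 0.103), and a second region 9437 bp away also ranked higher in each Allo library (55.7 ± 8.99 in Allo and 37.0 ± 4.09 in Syn, SD, n = 4 and 3). A Trim7 body region (chr11:48845182-48845832) stood at 37.6, 35.1, 49.3 and 62.3 in Allo and 20.7, 22.0 and 6.95 in Syn (limma adjusted p = 0.140). Its nearest other gene, 19654 bp away, is Irgm1, an interferon-inducible GTPase gene. A region in the body of Trim3, an NHL-repeat ligase gene of neurons, stood at 34.9, 39.8, 52.0 and 55.3 in Allo and 21.0, 19.9 and 29.3 in Syn (limma adjusted p = 0.212). The remaining higher regions, at Trim2, Trim11, Trim33 and Trim55, differed by 3.65 to 15.5 points, and none passed. The start of Trim27 stood at 81.0 ± 4.27 in Allo libraries and 76.1 ± 4.07 in Syn libraries (SD, n = 4 and 3), and its values overlapped.

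Lower standing in every Allo library was found at 10 regions, and none passed. The body of Trim36, a microtubule-linked ligase gene, held the largest of these differences (chr18:46204558-46205224), at 3.66, 47.8, 45.9 and 38.0 in Allo and 73.6, 63.7 and 79.0 in Syn (difference -38.3 ± 9.91 points, SE; limma adjusted p = 0.101). A second Trim36 region, 11257 bp from the body, averaged 66.9 ± 8.16 in Allo libraries and 81.0 ± 0.945 in Syn libraries (SD, n = 4 and 3; limma adjusted p = 0.183). A region 28284 bp before the Trim62 start stood at 20.3, 53.8, 56.5 and 59.0 in Allo and 73.1, 75.3 and 79.9 in Syn (limma adjusted p = 0.142), opposite in direction to that start. A region 6043 bp from Trim16 stood at 27.4, 10.8, 44.7 and 36.0 in Allo and 50.6, 59.5 and 66.2 in Syn (limma adjusted p = 0.147). The remaining lower regions, apart from the Trim45 start, lay at Trim2, Trim32, Trim44, Trim55 and Trim71, with differences between -23.4 and -9.10 points, and the Trim32 region also lies in the body of Astn2. With percentiles taken among the shared regions alone, the Trim36 body, Trim62 flank and Trim16 regions passed (limma adjusted p = 0.0117, 0.0196 and 0.0314), as did the Trim27 region (limma adjusted p = 0.0457).

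The balance between directions depended on which Allo libraries were used. Without Allo 3 and 4, whose peaks are named by a different pattern, 22 of 161 shared Trim regions lay higher and 26 lower in every Allo library (background 11.2% and 20.1%), and 0 passed limma. Without Allo 1 and 2, 68 of 173 lay higher and 25 lower (background 33.8% and 13.8%), and 15 and 4 passed limma (background 8.68% and 3.46%). Nothing in the sources used here says what the naming pattern stands for, and no Syn library shares that of Allo 3 and 4, so no comparison within it could be made.

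By function, the interferon-inducible and innate sensing list of 16 members held 67 regions, 42 of them shared. Of the 42, 6 ranked higher in every Allo library (at Trim8, Trim25, Trim27 and Trim30a), 0 ranked lower and 0 passed limma, where 8.06%, 6.58% and 0.461% of all shared regions did. The median difference was 2.97 points, against 0.437 for all shared regions. Of the 67 regions, 2 were found in Allo libraries alone, at Trim12a and Trim65 (background 1.14%). Starts were open in all 7 libraries at 11 of the 13 members with a listed start (background 60.1%). Trim56, which acts in STING and Toll-like receptor signalling, averaged 93.5 ± 1.63 in Allo libraries and 90.4 ± 4.11 in Syn libraries (SD, n = 4 and 3), and Trim13, an ER-anchored ligase, averaged 93.3 ± 3.30 in Allo and 93.0 ± 2.05 in Syn (SD, n = 4 and 3). Trim14, an adaptor of MAVS without a RING finger, had no listed start, and its gene end peak averaged 79.5 ± 7.32 in Allo and 76.0 ± 2.78 in Syn (SD, n = 4 and 3).

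NHL-repeat members (Trim2, Trim3, Trim32 and Trim71) held 30 shared regions, of which 2 ranked higher and 3 lower in every Allo library, with a median difference of -0.949 points. COS-box members, which bind microtubules, held 16, with 1 higher and 3 lower and a median difference of 0.653 points. Muscle members held 8, with 1 higher and 1 lower, both at Trim55. Broadly expressed members held 27, with 3 higher and 4 lower and a median of 0.729 points. The rodent or germ line list held 8, with 1 higher and 0 lower. The 1 higher region is that of Trim58, an erythroid gene placed in this list. In these lists 0 regions passed limma apart from the Trim58 region. Over all shared regions 8.06% ranked higher and 6.58% lower in every Allo library, with a median difference of 0.437 points.

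Counts of peaks per gene gave a similar picture. More peaks in all Allo libraries than in any Syn library were found at 3 members (background 2.33% of 17308 genes with a peak): Trim40 (3 in each Allo and 2 in each Syn library), Trim55 (5, 4, 5 and 4 in Allo and 3 in each Syn library) and Trim65 (2 in each Allo and 1 in each Syn library). Fewer peaks in all Allo libraries than in any Syn library were found at 0 members (background 1.27%). Trim40 had no region held by Allo libraries alone, since a flanking region of it was found in Allo 1, 3 and 4 and another start region in Allo 2.

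TRIM partners in RNA and DNA sensing were 19 matched genes, including Ddx58 (RIG-I), Ifih1, Mavs, Sting1, Traf6 and the ubiquitin-conjugating enzymes Ube2n and Ube2v1. They had a start peak in all 7 libraries at 17 of 17 genes with a listed start (background 60.1%). Of their 46 shared regions, 5 ranked higher in every Allo library (at Mavs, Ube2d3, Ube2n and Ube2v1; background 8.06%), 0 ranked lower (background 6.58%) and 0 passed limma (background 0.461%). Of their 97 regions, 1, at Ube2v1, was held by Allo libraries alone (background 1.14%). TRIM proteins under other symbols (Pml, Mefv, Mid1 and Mid2) had 12 shared regions, none of which ranked apart between the recipient types (background 8.06% higher and 6.58% lower).

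Sequence features and openness were compared start by start, so that the letters, the CpG count and the peak belong to the same start. The ISRE letters were found on either strand in 10 of 67 Trim windows (14.9%), against 3.38% of the 21045 windows of all protein-coding genes, and belonged to Trim2, Trim5, Trim12a, Trim12c, Trim21, Trim26, Trim30a, Trim30d and Trim34a. Most of these 10 windows lie in the chromosome 7 cluster, where paralogs share sequence, so they are not independent examples. The letters TTCNNNGAA, those of a STAT-binding GAS element, were found in 10.4% of Trim windows and 7.76% of all windows. Of the 10 Trim starts with the ISRE letters, 8 had a peak in all 7 libraries, that of Trim5 had one in Allo 3 alone and that of Trim2 had none, since the peaks at other starts of Trim2 stood at windows without the letters. Of the other 57 Trim starts, 32 (56.1%) had a peak in all 7 libraries. Over all protein-coding genes the order was the opposite, with 47.8% of 711 starts with the letters and 58.4% of 20334 starts without them open in all 7. Split at 10 CpG dinucleotides, a limit chosen after the values were seen, these shares lay closer. Below 10 they were 24.8% with and 20.1% without the letters, and at 10 or more 84.9% and 86.1%. CpG dinucleotides numbered a median of 15.0 at Trim starts with a peak in all 7 libraries and 2.0 at those with none, against 21.0 and 3.0 at the starts of all genes. A match of letters is a description and not a binding site.

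**Figure D4:**
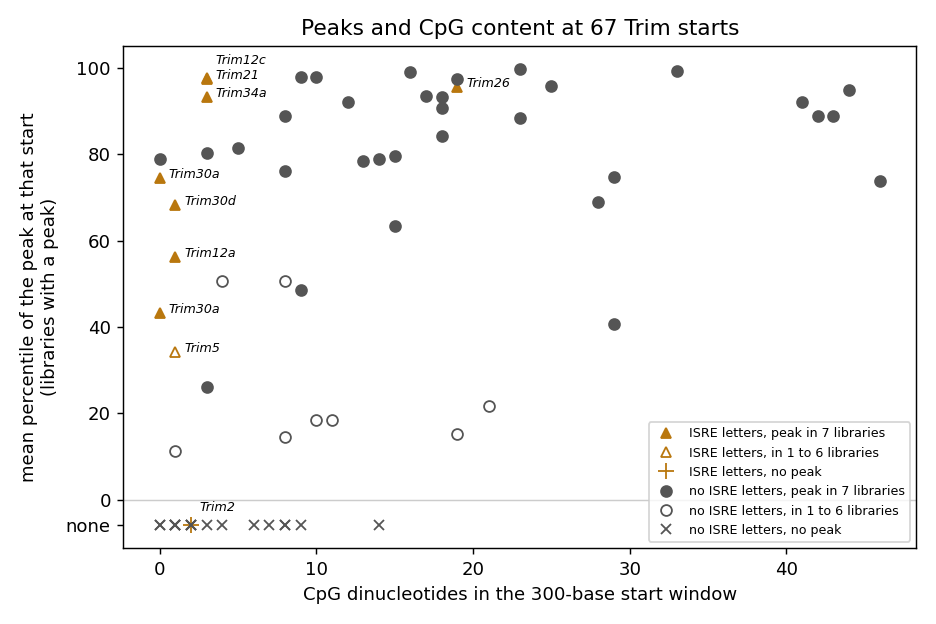
CpG dinucleotides in the 300-base start window (x axis) against the mean percentile of the peak at that start over the libraries with a peak (y axis; crosses at the bottom mark no peak in any library) for 67 Trim starts. Triangles mark windows with the ISRE letters, the plus sign the Trim2 window that holds them without a peak, and open symbols a peak in 1 to 6 libraries; 8 of the 9 triangles are filled.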

How the data were processed

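Each of the 7 deposited files holds peaks of 1 library, in the narrowPeak layout without header. Per the submitters' processing notes, Trim Galore, Bowtie2, MACS2, MACS3 and build mm10 were used. Versions, the peak threshold and the treatment of multi-mapped reads are not given in the sources used here. Each deposited peak carries a score (not used), a fold over background, a −log10 p (not used) and a −log10 q, which served here only as a rank or filter within its list.

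Groups came from the sample titles. Genes, starts and start windows came from RefSeq tables of GRCm38.p6, the same build as mm10, and 53 of 68 members had a start window. Peaks on chromosomes 1 to 19 and X were merged into regions wherever they shared 1 bp or more. Summits were assigned to genes with bedtools 2.31.1, and a region took the genes of its best ranked summit. Percentiles of shared regions were compared by limma 3.58.1 (R 4.3.3; lmFit, eBayes with a trend on the mean), with Benjamini-Hochberg adjustment over all 50324 shared regions at 0.05. Tested on simulated data, the fit recovered the size of planted shifts but called few of them, so a region that does not pass may still differ. Counts over the family were not tested and are, with few exceptions, given with the share of all features. Named genes were those with a region that separated the groups or passed limma, and the 5 highest and 5 lowest starts. Also named were the 5 with most regions, all without a peak, and 9 innate immunity genes. Windows were to be those of interferon-list members with a start or nearby region that differed between the groups, otherwise Trim21, Trim25 and Trim30a. Trim12a, Trim25, Trim27 and Trim30a meet the first part of this rule, and Trim21 is named only in the second. Windows of Trim5, Trim12c and Trim30d were added after their values were seen. The members and lists were chosen with earlier results of these data known. Python 3.11.15, numpy 2.4.6 and pandas 2.3.3 were used. The depth per library is unknown, so no counting interval is given. No pair of lists held the same regions (Jaccard index 0.655 to 0.828). Alternatives are described in the closing section.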

Additional observations from a re-analysis of the deposited data

Results flagged for a closer look

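Among 35 sets of 4 Allo values, 3 had a lone library far from the rest by the limit of Dixon's test. That limit gives about 1 in 20 for unselected, normally distributed values. The 3 regions are among those whose Allo and Syn percentiles did not overlap, so this rate need not hold for them. Allo 1 stood low at the region before the Trim62 start, at a percentile of 20.3, against values between 53.8 and 59.0 in the other Allo libraries. Allo 3 stood high at a flanking region of Trim2, at 62.3, where the other Allo libraries lay between 33.5 and 38.3. Allo 4 stood at 99.3 at the Trim45 start, below 99.8 to 99.9 in the others, a gap of under 1 percentile point.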

How the results depend on the processing

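Most counts over the family moved under some alternative. Each is followed by the share over all features in the same setting. Of 471 values of 27 single regions under 18 alternatives, 0 reversed, 16 newly passed and 8, all of the Trim58 region, no longer passed. A region gave no value in a setting where it was not shared. This held for the Trim58 region with −log10 q of at least 5, with lists cut to the shortest length and with 50% of a region covered. No alternative gave a member with a start peak in Allo libraries alone. Regions held by Allo libraries alone numbered 1 by gene body only (1.14%), 5 without Allo 3 and 4 (1.75%), and 24 of 294 without Allo 1 and 2 (6.90%). Regions held by Syn libraries alone numbered 2 with −log10 q of at least 5 (1.01%), 3 with lists cut to the shortest length (1.43%), 2 with 50% of a region covered (1.43%), 8 of 267 without Allo 3 and 4 (3.07%), and 3 without Allo 1 and 2 (2.21%). Regions called higher in Allo by limma numbered 0 with −log10 q of at least 5 (0.241%), with shortened lists (0.931%), with 50% coverage (0%), by gene body only (0.360%), ranked by fold (0.0358%) and without Allo 3 and 4 (0%), but 2 ranked among shared regions (1.33%) and 15 of 173 without Allo 1 and 2 (8.68%). Those called lower numbered 2 with shortened lists (0.810%), 3 ranked among shared regions (1.57%) and 4 without Allo 1 and 2 (3.46%). Regions with every Allo percentile above every Syn percentile numbered 11 of 132 with shortened lists (7.62%), 6 of 87 by gene body only (8.06%), 9 ranked by fold (5.57%) and 68 of 173 without Allo 1 and 2 (33.8%). Those below numbered 6 of 87 by gene body only (6.58%), 26 of 161 without Allo 3 and 4 (20.1%), and 25 of 173 without Allo 1 and 2 (13.8%). The difference in members with a start peak, 0.167 in the report's setting, was -1.583 with shortened lists and 2.25 with either gene end in place of the start. Members with a start peak in Syn libraries alone numbered 1 without Allo 3 and 4 (0.289%). Members with more peaks in every Allo library numbered 0 with −log10 q of at least 5 (2.07%), 1 with shortened lists (2.47%) and 16 without Allo 1 and 2 (18.7%), and those with fewer numbered 2 with shortened lists (2.40%), 1 by gene body only (0.932%) and 2 without Allo 3 and 4 (6.56%). The cause was not tested.

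With 1 library left out, the ranges were 3 to 7 regions in Allo alone (7 without Allo 1, 2.37%; Allo 2, 1.88%; or Syn 2, 1.55%; 5 without Allo 4, 1.34%, or Syn 3, 1.54%), 0 to 3 in Syn alone (3 without Allo 2, 1.98%) and 0 to 1 called higher (0 without Allo 3, Allo 4 or any Syn library, at most 0.0884%). In these settings, regions with every Allo percentile above numbered 18 to 33 (33 without Allo 1, 16.1%). Those below numbered 11 to 21 (21 without Allo 2, 11.6%, and 16 without Syn 1, 10%). Members with more peaks numbered 3 to 7 (5 without Allo 1, 7.31%, 6 without Allo 2, 3.43%, and 7 without Syn 2, 3.44%). Members with fewer peaks numbered 0 to 1, with 1 without Allo 4 (1.82%), Syn 2 (2.29%) or Syn 3 (1.83%). Replicate numbers do not pair the libraries: deviations of same-numbered libraries correlated at 0.0755, -0.0333 and 0.0742. With the replicate number as a block, 0 regions were called higher, since the Trim58 region had an adjusted p of 0.0750 (limma). Depth is unknown, so how far it limits these counts could not be measured.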

Other observations

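Start windows with fewer than 10 CpG dinucleotides (a limit chosen after the values were seen) differed in openness within the family. Of 9 such Trim windows with the ISRE letters, 7 had a peak at their start in all 7 libraries (both of Trim30a and those of Trim12a, Trim12c, Trim21, Trim30d and Trim34a), and of 28 without the letters, 8 had. Over all protein-coding genes the shares lay closer, at 24.8% of 439 CpG-poor windows with the letters and 20.1% of 8546 without them. Among Trim windows with 10 or more CpG, the 1 with the letters (Trim26) and 24 of 29 without them were open in all 7. The 7 open windows lie on chromosome 7 and most belong to paralogs, so they share sequence and are not independent examples.

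Trim43a and Trim43c, germ line genes without a start or gene end peak, each had a flanking region among the strongest of every list. That of Trim43a, 10816 bp from the body (chr9:88599135-88600067), stood at 99.2, 99.8, 99.9 and 99.5 in Allo and 98.9, 99.7 and 99.6 in Syn. That of Trim43c, 10768 bp from the body (chr9:88858499-88859477), averaged 99.0 ± 0.345 in Allo and 99.2 ± 0.0878 in Syn (SD, n = 4 and 3).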
